A study of Mus musculus with 7 samples.

Results

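The cytosolic ribosomal proteins are the protein parts of the ribosome that translates nuclear-encoded mRNAs. They were taken here by gene symbol, as every Rpl or Rps symbol followed by a number with at most a short suffix, together with Rplp0, Rplp1, Rplp2 and Rpsa, leaving out the Rps6k kinases and names marked as pseudogenes. The rule found 83 members among the 21937 genes of the authors' deposited table. No measured value entered it. RNA came from A2lox mouse embryonic stem cells of the 129/Ola background, which carry a NeuroD1 transgene switched on by doxycycline. The uninduced group held 2 libraries of cells without the drug and the induced group held 2 libraries of cells given doxycycline at 500 ng/ml for 48 h, both poly(A)-selected and both from cells taken off their feeder layer. Every library carried the transgene and none received the drug without it, so effects of doxycycline and of NeuroD1 cannot be told apart. The labels do not describe how many cultures stood behind the libraries of a group, so the p-values measure the spread between these libraries, which may be technical.

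The eukaryotic ribosome has a small subunit, which reads the mRNA, and a large subunit, which joins amino acids. Each ribosome holds a single copy of nearly every ribosomal protein, and surplus proteins are degraded, so cells make them in matched amounts. Their mRNAs are short, abundant and begin with a run of pyrimidines at the 5′ end, the TOP element, through which the kinase mTORC1 and the protein Larp1 control their translation. Embryonic stem cells divide quickly, and ribosome production and the amount of translation are known to be regulated when they differentiate.

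All values are the authors' means of normalized read counts for a group, and every p is from the authors' DESeq comparison with Benjamini-Hochberg adjustment over 18283 genes. The table holds no spread between libraries and no read totals, so the depth is unknown here. Neurod1, the induced gene, rose from 438 to 4371 (adjusted p = 4.5e-274 by the authors' deposited table). Of 6 fixed stem cell markers 5 fell, and the list kept a summed level of 26642 against 46550 in uninduced cells. All 6 fixed neuronal markers in the table rose, from a summed 5345 to 19656. The feeder fibroblast list of 7 genes summed to 2604 uninduced and 3260 induced; none was listed at 0 in both groups, and of 6 with a mean of at least 10 there were 2 that rose and 2 that fell, with lumican (Lum) at 1.54 and 3.86 and the collagen gene Col1a1 at 970 and 1329. The part of feeder cells or of a changed mix of cells in the results was not tested, and in bulk RNA fewer cells of a type and less RNA per cell cannot be told apart.

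Most ribosomal protein mRNAs changed little while much of the transcriptome moved. Of the 83 members 5 rose and 5 fell at an adjusted p of 0.05, which is 12.0%, against 35.5% of all genes with a p in the authors' deposited table, where 19.1% rose and 16.4% fell. The median log2 change, computed from the group means with a pseudocount of 1, was 0.05 over the 80 members with a mean of at least 10, beside 0.0018 over all 14388 genes with such a mean. That small upward median turned to -0.0115 when both groups were scaled to equal sums of 14 housekeeping genes, a list in which 4 rose, Hprt by 6.91-fold in the authors' deposited table, and 3 fell, so the sign of the family's median depends on the scaling. Together the members held 6.76% of all normalized reads in uninduced and 7.01% in induced cells, and their summed level was 1.04 times the uninduced sum.

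The members fell into 3 sets by level, a division made after the values were seen and used here only for description. There were 71 members whose mean lay at 4024 or above and which are no minor paralog, called the abundant members below. Another 6 are minor paralogs of a named parent gene. The last 6 are ordinary ribosomal protein genes with a mean under 100. Under the authors' scaling 71 of 71 abundant members stayed inside 1.25-fold in either direction, though the lowest fold, 0.804 for Rpl36, lay close to the limit. Under the housekeeping scaling, which lowers every log2 change by 0.06, Rpl36 would lie outside that band. Of the 4098 other genes with a mean of at least 1000, 37.3% lay outside the band under the authors' scaling. Of the abundant members 5 rose and 1 fell, 8.45% in all, beside 53.3% of those 4098 other genes, where 26.2% rose and 27% fell. The lower and upper quartiles of the log2 change were -0.01 and 0.12. Induced means were above uninduced means for 50 and below for 21 of them, and for 35 and 36 after scaling to the housekeeping genes, Hprt included.

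**Figure D1:**
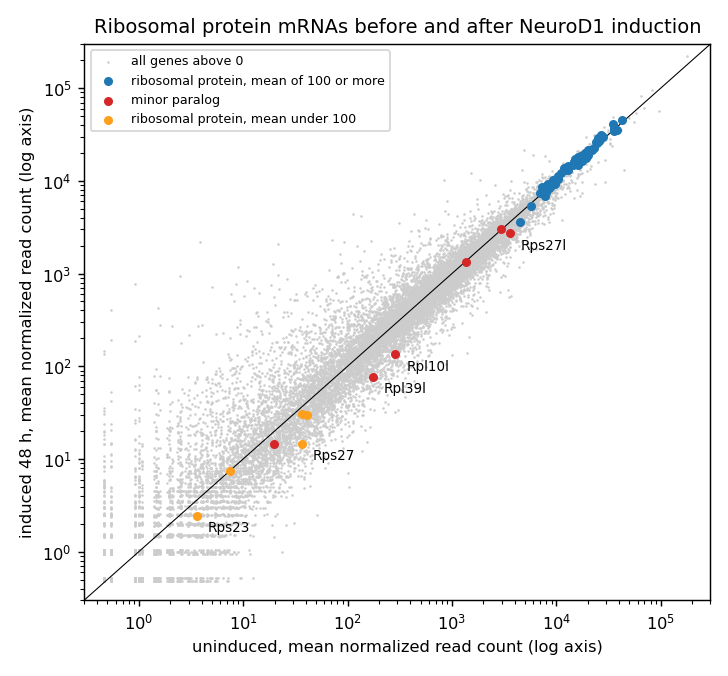
Group mean of each gene in induced cells (vertical, log axis) against uninduced cells (horizontal, log axis), in normalized read counts, with all genes above 0 in grey, abundant ribosomal proteins in blue, minor paralogs in red and ribosomal proteins with a mean under 100 in orange. The 71 abundant members lie along the line of equal levels between 3587 and 45155 induced reads, while Rpl10l, Rpl39l and Rps27l lie below it; Rpl26, at 0 in uninduced cells, is not drawn.

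These were among the most abundant mRNAs of the cells. Ranked by the mean of the 2 groups, 5 members were among the 20 highest genes, 34 among the 100 highest and 48 among the 200 highest. Rpl4, a large subunit protein that reaches into the exit tunnel, was the highest member at 42951 and 45155. Rpsa, a small subunit protein also known as the laminin receptor precursor, stood at 34769 and 41271, and Rps2, which lies near the mRNA entry, at 38243 and 35217. Rpl3, close to the peptidyl transferase centre, stood at 36060 and 36903. The stalk protein gene Rplp0 stood at 35888 and 34588. These levels depend on mRNA length, so levels of different genes were also compared per kilobase of the shortest RefSeq mRNA. Per kilobase, the abundant members had a median of 19868 uninduced and 20986 induced normalized reads, with quartiles of 14663 and 26033 in uninduced cells. Their order was nearly the same in both groups, with a Spearman correlation of 0.97 over 71 genes, which share the same libraries and lengths. The lowest per kilobase was Rps15a, at 1618 uninduced, whose shortest RefSeq mRNA is given as 5136 bases, so this value rests on the annotated length.

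Among the small subunit genes 3 of 29 abundant members rose and 0 fell. That is 10.3% called, beside 53.3% of other genes with a mean of at least 1000. Rpsa went from 34769 to 41271, the largest rise of an abundant member, at 1.19-fold (adjusted p = 0.0047 by the authors' deposited table). Rps4x, the X-linked copy of a small subunit protein that has a Y-linked counterpart in humans, was at 24904 and 29269, 1.18-fold (adjusted p = 0.018 by the authors' deposited table). Rps3a, a protein of the small subunit platform, was at 26946 and 31197, 1.16-fold (adjusted p = 0.018 by the authors' deposited table). All 3 belong to the body of the small subunit, where 16 genes of the list fixed for it had a mean of at least 10. In that list 3 rose and 1, Rps27, fell, which is 25% called beside 44.6% of all genes with such a mean. Rps27 was at 36.4 and 14.5, a level that may not measure the gene's expression. The head of the small subunit, which holds the decoding partner surfaces for the tRNAs, had 0 calls among 14 genes and a median log2 change of 0.07. Head members ranged from -0.08 for Rps18 to 0.14 for Rps20 on the log2 scale.

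Rps6, the substrate of the S6 kinases downstream of mTORC1, went from 27696 to 30835, with an adjusted p of 0.053 in the authors' deposited table, just outside the threshold. Rps7, Rps10, Rps19, Rps24, Rps26, Rps28 and Rps29 are among the genes mutated in Diamond-Blackfan anaemia, a human disorder of red cell production. Of 19 mouse counterparts of such genes 18 had a mean of at least 10, and among these Rps27 fell and 0 rose. That is 5.56% called, beside 44.6% of all genes with such a mean. Rps27 was at 36.4 and 14.5, a level that may not measure the gene's expression. The median log2 change of the 18 genes was 0.07, beside 0.05 for all members with a mean of at least 10.

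Among the large subunit genes 2 of 42 abundant members rose and 1 fell. That is 7.14% called, beside 53.3% of other genes with a mean of at least 1000. Rpl17, which lines the peptide exit tunnel, went from 15044 to 17083, 1.14-fold (adjusted p = 0.020 by the authors' deposited table). Rpl7, on the surface of the large subunit, went from 25002 to 27895, 1.12-fold, with an adjusted p of 0.0481 in the authors' deposited table. That value and the 0.0470 of Rplp2 lay just inside the threshold. On the other side, Rpl35, Rpl11 and Rpl36 lay just outside at 0.0527, 0.0534 and 0.0537 in the authors' deposited table. Rpl36 had the lowest fold of the abundant members, at 0.804, with means of 4461 and 3587. Rpl36a, X-linked, had the highest fold of the abundant large subunit members in the authors' deposited table, 1.16, but did not pass (adjusted p = 0.14).

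The P stalk is the flexible arm of the large subunit that recruits translation factors. It is built of Rplp0, Rplp1 and Rplp2, and all 3 genes had lower means in induced cells under the authors' scaling. Rplp2 fell from 7755 to 6800, 0.877 times the uninduced mean (adjusted p = 0.047 by the authors' deposited table). Rplp1 was at 16276 and 14945 (adjusted p = 0.27) and Rplp0 at 35888 and 34588 (adjusted p = 0.68 by the authors' deposited table), and neither passed. Rpl5 and Rpl11 carry the 5S rRNA into the large subunit and also bind Mdm2, the ubiquitin ligase of p53, when ribosome assembly is disturbed. Rpl5 was at 27874 and 30100 (adjusted p = 0.33) and Rpl11 at 13072 and 14581 (adjusted p = 0.053 by the authors' deposited table). Of the 7 tunnel exit genes with a mean of at least 10, Rpl17 rose and 0 fell, 14.3% called. Over all genes with such a mean 44.6% were called.

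The X-linked members are Rpl10, Rpl36a, Rpl39 and Rps4x. Rpl10, at the joint of the subunits, was at 19925 and 21557 (adjusted p = 0.18), and Rpl39, a very short tunnel protein, at 9789 and 9152 (adjusted p = 0.47 by the authors' deposited table). Among these 4 genes Rps4x rose and 0 fell, 25% called beside 44.6% of all genes with a mean of at least 10.

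**Figure D2:**
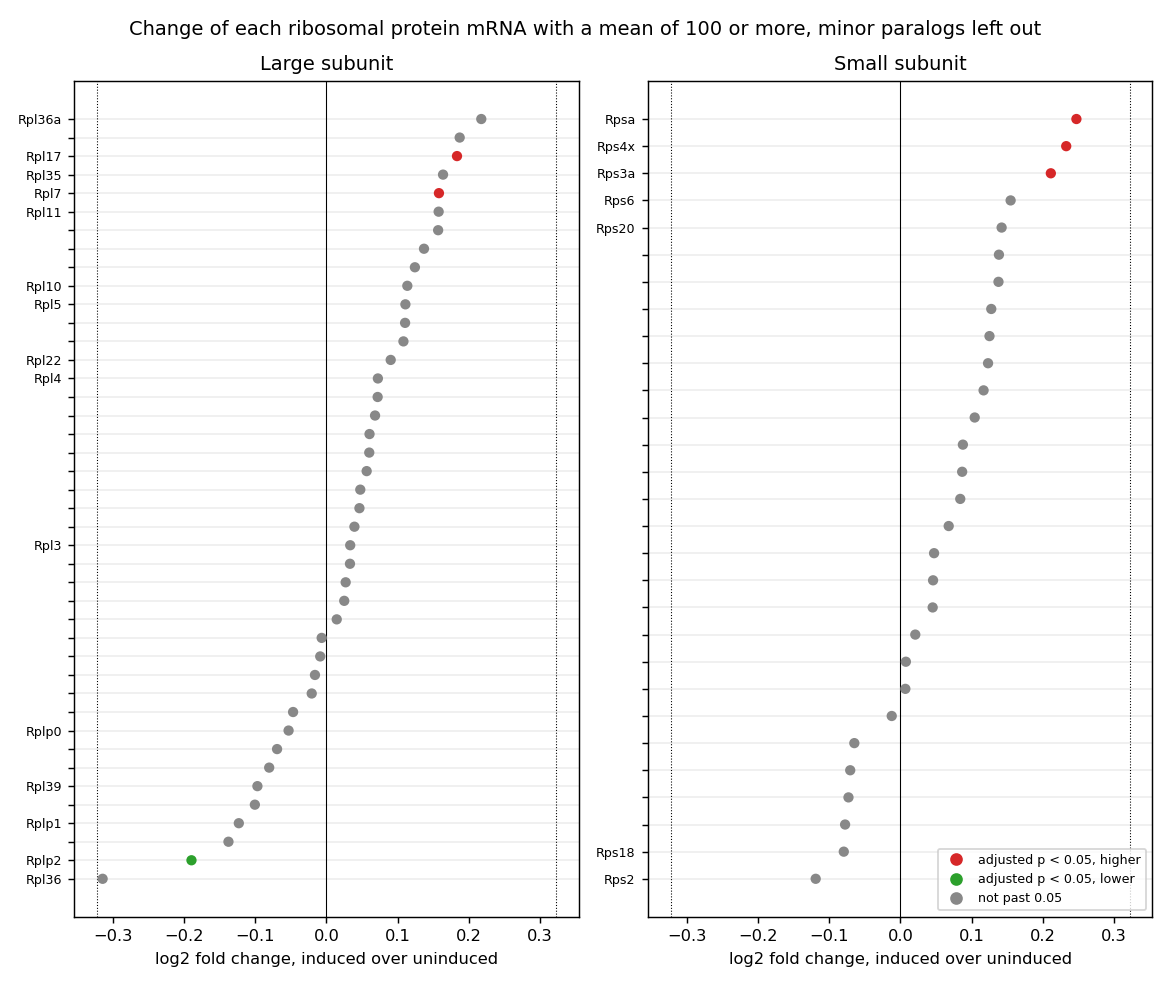
Log2 fold change of induced over uninduced cells (horizontal) for the 71 abundant members, 42 of the large and 29 of the small subunit, each subunit sorted by change, with red points for genes that rose, green for genes that fell at an adjusted p of 0.05 and grey for the rest; genes that passed and the main others described are labelled. Dotted lines mark 1.25-fold in either direction; all points lie between them, from -0.31 for Rpl36 to 0.25 for Rpsa.

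The abundant small subunit members had a median fold of 1.06 and the large subunit members 1.03, computed from group means with a pseudocount of 1, and the difference between subunits was not tested. Summed over each subunit, levels were 1.06 and 1.03 times the uninduced sums. After scaling to housekeeping genes all these values drop by 0.06 on the log2 scale.

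The change of an abundant member went partly with its length. Here mRNA length is that of a gene's shortest RefSeq mRNA, and coding length is the longest given for the gene. These lengths can belong to different transcripts. Across the 71 genes the Spearman correlation of the log2 change with mRNA length was 0.43, and with coding length 0.29. It was 0.05 with mRNA length over 3041 other genes with a mean of at least 1000 and an mRNA in the same range of lengths. That range reaches 5136 bases only through Rps15a. The other genes had a median length of 2804 bases against 738 for the abundant members, so the sets are not alike in length. The correlations are taken across genes of the same libraries and given as a description, and genes are no replicates. Over the 65 abundant members that were not called, the Spearman correlation with coding length was 0.17. Of 22 abundant members with a coding length of at least 600 bases 4 rose, 0 fell and 18 had a higher induced mean. Of the 49 shorter ones 1 rose, 1 fell and 32 had a higher induced mean. The part of length, RNA quality or fragment selection in these small changes was not tested.

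**Figure D3:**
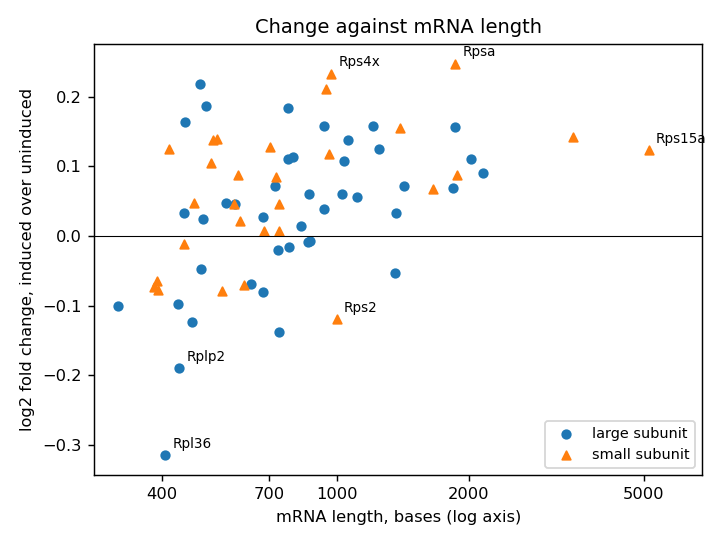
Log2 fold change of induced over uninduced cells (vertical) against mRNA length in bases (horizontal, log axis) for the 71 abundant members, with circles for the large and triangles for the small subunit. Members with negative changes lie mostly among the shorter mRNAs, with Rpl36 and Rplp2 lowest, and the Spearman correlation is 0.43.

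Falls of more than 1.25-fold were found among the minor paralogs. These are additional genes for a ribosomal protein, often expressed in few tissues. Of the 6 members in this set 3 fell and 0 rose, 50% called, which is near the 44.6% of all genes with a mean of at least 10. Rpl10l, an intronless autosomal copy of the X-linked Rpl10 needed in mouse male germ cells, fell from 288 to 135, 0.468 times the uninduced mean (adjusted p = 6.4e-09 by the authors' deposited table). Its parent Rpl10 did not pass, and the ratio of parent to paralog reads went from 69.2 to 160. Rpl39l, an autosomal relative of the X-linked Rpl39 that is abundant in mouse testis, fell from 175 to 76.8, 0.439 times (adjusted p = 0.0080 by the authors' deposited table). Rpl39 outnumbered it 56.0 to 1 in uninduced and 119 to 1 in induced cells by reads. Per kilobase of mRNA, Rpl10l made up 1.11% of its pair in uninduced and 0.483% in induced cells, and Rpl39l went from 0.954% to 0.450%. The changes of parent and paralog were not tested against each other.

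Rps27l, a relative of Rps27 that is a p53 target and Mdm2 binder in human cells, fell from 3616 to 2711, 0.750 times the uninduced mean (adjusted p = 0.010 by the authors' deposited table). In the authors' deposited table the p53 gene Trp53 was at 4610 and 4784 (adjusted p = 0.68), while Mdm2, both target and inhibitor of p53, fell from 3204 to 2300 (adjusted p = 2.3e-08). In a list of 6 genes for p53, its regulators and its targets 1 rose and 3 fell. The target Cdkn1a rose from 902 to 1096 (adjusted p = 0.015 by the authors' deposited table), and Mdm2, Mdm4 and Ccng1 fell. This is 66.7% called, beside 44.6% of all genes with a mean of at least 10. Of 5 ribosomal proteins with reported Mdm2 binding and a mean of at least 10, Rps27l fell and 0 rose, 20% called.

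The other paralogs did not pass. Rpl22l1, whose mRNA is repressed by its parent protein in mouse cells, was at 1369 and 1343 (adjusted p = 0.97), and Rpl22 at 7793 and 8296 (adjusted p = 0.51 by the authors' deposited table). By reads Rpl22 outnumbered Rpl22l1 5.69 to 1 in uninduced and 6.18 to 1 in induced cells. Per kilobase Rpl22l1 made up 43.8% of that pair in uninduced and 41.8% in induced cells, the highest share of a paralog whose parent had a mean above 100. The shortest RefSeq mRNAs are given as 2153 bases for Rpl22 and 486 for Rpl22l1, so this share rests on the annotated lengths. Rpl7l1 was at 2982 and 3027 (adjusted p = 0.92 by the authors' deposited table). Rpl3l, the striated muscle form of Rpl3, was near the bottom at 19.9 and 14.5 (adjusted p = 0.68 by the authors' deposited table). Genes that the symbol rule leaves out, given here after their values were seen, were Rpl36al at 3094 and 2724 (adjusted p = 0.24) and Rps4y2, a RefSeq transcribed pseudogene of the Rps4 family, which fell from 2170 to 1816 (adjusted p = 0.0076 by the authors' deposited table).

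**Figure D4:**
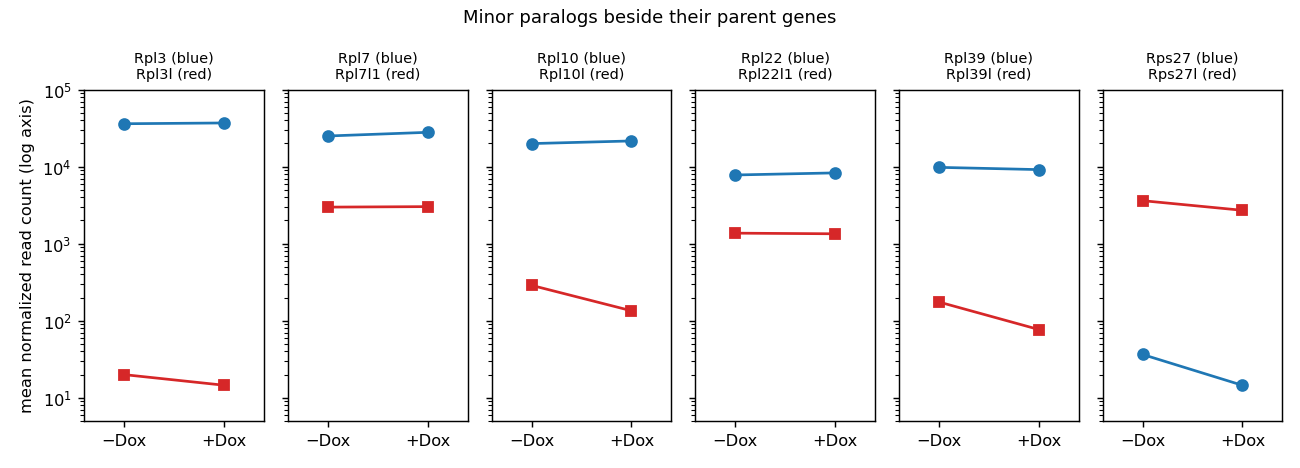
Group means in normalized read counts (vertical, log axis) without (−Dox) and with doxycycline (+Dox) for the 6 paralog pairs, with the parent gene as blue circles and the minor paralog as red squares; lines join the means of a gene. Rpl10l, Rpl39l and Rps27l step down, and in the Rps27 pair the paralog lies above its parent, at 3616 against 36.4 uninduced.

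Ordinary ribosomal protein genes with values near 0 limit the account. Rpl26 was listed at 0 uninduced and 1.04 induced, and Rps23 at 3.61 and 2.43. Rpl30 was at 40.8 and 30.0 and Rpl34 at 36.3 and 30.3. All 6 encode core ribosomal proteins. Rps27 was called lower in the authors' deposited table, from 36.4 to 14.5 (adjusted p = 0.022), at a level that may not measure the gene's expression. Tpt1, another abundant TOP mRNA, was likewise listed near 0, at 0.464 and 0.

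Ribosomal protein genes have many near-identical copies in mammalian genomes, mostly inserted pseudogenes, and reads that fit several places can be dropped or split by the counting. The coding sequence of 77 of the 83 members had at least 1 other place in the mouse genome (GRCm38.p6) with 95% identity over 90% of its length, 591 places in all. The 6 genes near 0 had 4 to 13 such places each, with a median of 5.5. The abundant members had 0 to 55 with a median of 6. At 99% identity all 6 genes near 0 had such a place, with a median of 1.5, as had 49 of the 71 abundant members, with a median of 1. The part of these copies in the values near 0 was not tested. Exons of another gene overlapped none of the exons of these 6 genes in that annotation. How the authors' counting treated reads with several places is not given in the sources used here, so values of members with near-identical copies are uncertain. Rpl21, with 55 places, was at 8288 and 9239, and Rpl8 and Rps3, with 0 places, were at 23004 and 22865 and at 24364 and 25875. Rpsa had 11 such places, Rps4x and Rps3a 7 each, Rpl17 21, Rpl7 7, Rplp2 1, Rpl10l 1, and Rpl39l and Rps27l 0. In that annotation exons of another gene cover 34.2% of the exonic bases of Rpsa and 47.7% of those of Rpl5, so reads of these genes may be shared.

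Promoter windows from RefSeq (GRCm38.p6), of 250 bases before and 50 after an annotated start, were found for 63 members, 75 windows in all. Stretches of them are printed for 6 members that passed the test and for 1 abundant member that did not. The short pyrimidine run CTTTCC on the gene's strand was in 37.3% of member windows and 14.1% of all 32851 windows. The ETS family motif CCGGAAG, on either strand, was in 36% and 8.86%, and the YY1 motif AAGATGG, on either strand, in 16% and 6.34%. TATAAA on the gene's strand was in 8% and 8.32%. The E-boxes CAGATG and CAGCTG, of the kind that NeuroD1 binds, were each in 5.33% of member windows, beside 17.2% and 16.3% of all windows, on either strand. No pair of these motifs was removed for overlap, the second E-box reads the same on both strands, and member windows had 57.9% G and C against 53.8%, so base composition differs too. A match is a description of letters and not a bound site. The windows below run from 60 bases before to 50 bases after the annotated start, 5′ to 3′ on the gene's strand, and capitals mark any of the 6 motifs. Rpl35 is an abundant member with the pyrimidine run, Rps27 and Rps27l are a pair, Rpl39l and Rpl10l are the paralogs that fell most, and Rps4x and Rpsa are the members that rose most. They lie at chr2:39005082-39005191 (minus strand), chr3:90213599-90213708 (minus), chr9:66946026-66946135 (plus), chr16:10170168-10170277 (plus), chr12:66284352-66284461 (minus), chrX:102189342-102189451 (minus) and chr9:120127706-120127815 (plus) in that order.
Rpl35: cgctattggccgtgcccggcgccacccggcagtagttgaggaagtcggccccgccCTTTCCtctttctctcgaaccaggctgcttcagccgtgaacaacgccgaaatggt
Rps27: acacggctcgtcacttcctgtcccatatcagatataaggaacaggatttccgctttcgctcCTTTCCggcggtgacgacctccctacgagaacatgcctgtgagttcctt
Rps27l: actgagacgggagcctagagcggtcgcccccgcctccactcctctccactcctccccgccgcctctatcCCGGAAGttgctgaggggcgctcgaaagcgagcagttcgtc
Rpl39l: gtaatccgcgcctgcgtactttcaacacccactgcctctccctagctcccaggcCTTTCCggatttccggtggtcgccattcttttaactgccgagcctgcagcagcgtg
Rpl10l: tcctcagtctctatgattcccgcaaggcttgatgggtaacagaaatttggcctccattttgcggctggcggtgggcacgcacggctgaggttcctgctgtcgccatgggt
Rps4x: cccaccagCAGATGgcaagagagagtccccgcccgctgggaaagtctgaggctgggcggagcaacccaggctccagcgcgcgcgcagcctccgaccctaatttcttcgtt
Rpsa: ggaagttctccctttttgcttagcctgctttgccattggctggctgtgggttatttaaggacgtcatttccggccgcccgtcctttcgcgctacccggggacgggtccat
The pyrimidine run spans or ends at the annotated start in Rpl35 and Rpl39l and lies just after it in Rps27. Rps27l has the ETS motif just after the start, Rps4x an E-box upstream, and Rpl10l and Rpsa hold none of the 6 motifs in these bases.

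Ribosome genes that the symbol rule leaves out include Fau and Gnb2l1, and neither passed. Fau, which makes a small subunit protein as a fusion, was at 7084 and 7554 (adjusted p = 0.38), and Gnb2l1, the gene of the small subunit scaffold Rack1, at 31442 and 33798 (adjusted p = 0.23 by the authors' deposited table). Mitochondrial ribosomal proteins, which serve translation inside mitochondria, had 3 rises and 7 falls among 76 genes with a mean of at least 10, which is 13.2%, beside 44.6% of all genes with such a mean. Their median log2 change was -0.07. By the authors' deposited table Mrps18b fell from 1478 to 961 (adjusted p = 6.4e-10), and Mrps24, Mrpl42 and Mrpl2 fell to between 0.676 and 0.767 times.

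In a list of elongation factors and the kinase gene Eef2k 3 of 10 genes rose, Eef1a1, Eef2 and Eef2k, and 0 fell, beside 23.8% rising and 20.7% falling over all genes with a mean of at least 10. Eef1a1, which brings tRNAs to the ribosome and has a TOP mRNA, was the most abundant gene of the table and rose from 178907 to 224392, 1.25-fold (adjusted p = 0.0013 by the authors' deposited table). Eef2, the translocation factor, rose from 65065 to 81477, also 1.25-fold (adjusted p = 8.5e-06), and its kinase gene Eef2k rose 1.51-fold (adjusted p = 1.6e-05 by the authors' deposited table). Eef1a2, the neuronal and muscle form, was at 24.6 and 43.1 (adjusted p = 0.12 by the authors' deposited table). Initiation factors rose in 7 of 37 cases and fell in 2, 24.3% called. Eif4e3, a relative of the cap-binding protein, rose from 97.6 to 500.1 and Eif4g2, a scaffold for cap-independent initiation, 1.37-fold in the authors' deposited table. By the authors' deposited table the helicase gene Eif4a2 fell from 13855 to 10334 and Eif3f rose 1.26-fold. Of 8 other TOP mRNAs with a mean of at least 10, 2 rose and 1 fell, 37.5% called beside 44.6% of all genes with such a mean. By the authors' deposited table the poly(A)-binding protein gene Pabpc1 fell from 32928 to 25578, Nap1l1 rose 1.12-fold and vimentin (Vim), also a gene of neural and mesenchymal cells, rose 3.45-fold, while Cct2 did not pass (adjusted p = 0.090).

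For genes that build ribosomes and modify ribosomal RNA the background is again all genes with a mean of at least 10, of which 44.6% were called, with 23.8% higher and 20.7% lower. All 7 snoRNA host genes in the table fell, from a summed 10926 to 6631; their introns hold the small RNAs that guide rRNA modification, and several have TOP starts. Gas5 fell from 5322 to 3004 (adjusted p = 1.7e-11) and Snhg1 from 2510 to 1710 (adjusted p = 4.0e-10), and Snhg12 and Snhg7 fell to 0.612 and 0.589 times, in the authors' deposited table. Among 10 genes for proteins that bind snoRNAs there were 6 falls and 0 rises, 60% called (median log2 change -0.26). Nop56, a core protein of the box C/D particle, fell from 10095 to 7393 (adjusted p = 2.6e-09), and Nhp2, Nop10 and Naf1, of the H/ACA particle or its assembly, fell to 0.700, 0.673 and 0.760 times in the authors' deposited table. Factors of 60S assembly showed 7 falls and 1 rise among 27 genes, 29.6% called (median log2 change -0.14), and those of 40S assembly and the small subunit processome 7 falls and 1 rise among 38, 21.1% called (median -0.07). Both shares were below the 44.6% of all genes. Ftsj3, Nip7, Nle1 and Rrp1b were the 60S factors with the smallest adjusted p, and by the authors' deposited table they fell to between 0.744 and 0.821 times. Pdcd11, Rrp9 and Nat10 fell to 0.720, 0.707 and 0.761 times, and Riok3, a kinase of late 40S maturation, rose 1.34-fold in the authors' deposited table.

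Subunits and factors of RNA polymerase I, which transcribes ribosomal RNA, showed 4 falls and 1 rise among 18 genes (median log2 change -0.19), which is 27.8% called beside 44.6% of all genes. Taf1d and Polr2e fell to 0.711 and 0.782 times, Polr1b to 0.825 times, and Polr1c, a subunit shared with polymerase III, rose 1.22-fold in the authors' deposited table. Of 6 nucleolar scaffold genes Tcof1, Npm3 and Nolc1 fell, 3 in all, and 0 rose, which is 50% called beside 44.6% of all genes. Nucks1 did not pass (adjusted p = 0.087 by the authors' deposited table). Proteins that escort ribosomal proteins or clear faulty ones rose in 3 of 14 cases and fell in 2, 35.7% called beside 44.6% of all genes. Aamp rose 1.26-fold, Rnf14 rose 1.22-fold, and Zfp598 and Ipo5 fell to 0.731 and 0.874 times in the authors' deposited table.

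Among 18 mTORC1 components and regulators of TOP mRNAs 2 genes rose and 5 fell, 38.9% called beside 44.6% of all genes with a mean of at least 10. By the authors' deposited table Larp1, which binds TOP starts, fell from 8589 to 7220 and its relative Larp4 from 5924 to 4662. Eif4ebp1, the cap-binding inhibitor that mTORC1 phosphorylates, fell from 3556 to 2209 (adjusted p = 2.4e-16), and the S6 kinase gene Rps6kb1 fell to 0.792 times (adjusted p = 0.00056 by the authors' deposited table). Of the Myc family, whose members activate ribosome genes, Mycn fell to 0.833 times (adjusted p = 0.0057), Myc was at 302 and 337 (adjusted p = 0.51) and Mycl1 rose 5.28-fold (adjusted p = 2.0e-132 by the authors' deposited table). No direct test set these lists against the ribosomal proteins.

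**Figure D5:**
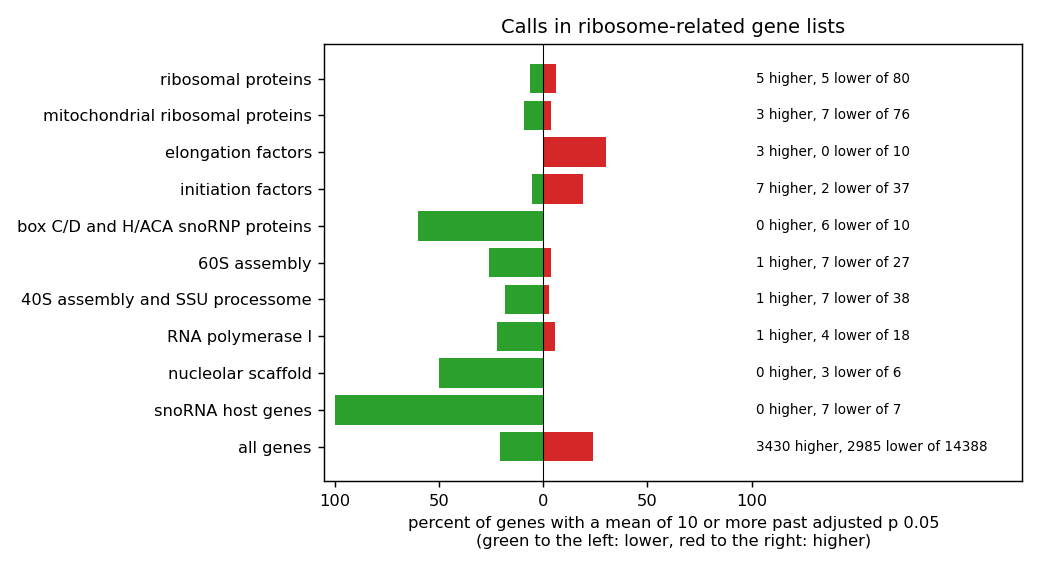
Percent of the genes of each list with a mean of at least 10 that passed an adjusted p of 0.05, with falls as green bars to the left and rises as red bars to the right; the counts stand at the right. Ribosomal proteins have 5 rises and 5 falls of 80, whereas snoRNA host genes have 7 falls of 7, the elongation list includes the kinase gene Eef2k, and all genes 3430 rises and 2985 falls of 14388.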

How the data were processed

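Per the submitters' processing notes, the RNA libraries were handled with HTSeq 0.5.4p1, DESeq, TopHat2 2.0.8 and SAMtools 0.1.19 on build mm9; roles, strand setting and annotation are not given in the sources used here. The authors' deposited table gives, per gene, a mean normalized count for each group (a signal relative to the authors' size factors), their ratio, its log2 and a p-value with its adjustment. The deposited ratios equalled induced over uninduced means and the adjusted p-values a Benjamini-Hochberg adjustment over 18283 genes, in 100% of cases at a relative tolerance of 1e-06. The 4 columns of a second table, one per library, carry names that match no sample label and were not used, so no spread between libraries is given. The chromatin immunoprecipitation and input samples were not analysed here.

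Genes were called at an adjusted p of 0.05. Medians use log2 of means with a pseudocount of 1, which understates changes of low genes. The members and lists were chosen with earlier results of these data known. Named genes are the members that passed, the highest and lowest, the largest changes with a mean of at least 10, the paralogs with their parents, the stalk, 5S and X-linked genes, up to 4 genes per other list with the smallest adjusted p, and fixed single genes. A few of these are given only in ranges or counts, and some are not reported here. Older symbols were matched through RefSeq synonyms (Rps3a as Rps3a1), and lengths were found for 83 members. Copies were sought with blastn 2.17.0 at an E-value of 1e-10. Python 3.11.15, pandas 2.3.3, numpy 2.4.6 and scipy 1.17.1 were used, and the adjustment was tested on simulated data.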

Additional observations from a re-analysis of the deposited data

How the results depend on the processing

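The counts of called members depend on the threshold, with Rpl7 and Rplp2 just inside 0.05 and Rpl35, Rpl11, Rpl36 and Rps6 just outside. At an adjusted p of 0.01 there were 1 rise and 2 falls, and at 0.1 there were 11 rises and 6 falls. With a change of at least 1.5-fold as well, 0 rises and 3 falls were left. When the adjustment was recomputed over genes with a mean of at least 10, Rpl11, Rpl35, Rpl36 and Rps6 were added, giving 8 rises and 6 falls. The shares of all genes called under these settings were not computed, so these counts have no background beside them. Without the minor paralogs 5 rises and 2 falls were left. The median log2 change of the members was between 0.0410 and 0.0474 without the paralogs, under equal totals, centring on all genes, another pseudocount (0.5 or 5), a minimum mean of 100 and no minimum. Under equal sums of the housekeeping genes it was -0.0115, and the ratio of the summed levels was 0.9998 in place of 1.04. That list includes Hprt, which rose 6.91-fold in the authors' deposited table, and the scaling was not run without it. The factor itself lowers every log2 change by 0.06. The smallest called rise was 0.16, for Rpl7, and falls only deepen, so all 10 called members had to keep their direction. No p was recomputed under this scaling. No paired analysis was possible because the columns used hold group means and carry no replicate numbers. Tests that leave out a library, a limma model and a replicate block were not run for the same reason. The depth of the libraries is unknown here, so no counting error is given.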
